A study of Homo sapiens with 24 samples.

Results

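The genes described here encode the nuclear parts of the mitochondrial respiratory chain and of ATP synthase. They were taken by name: protein-coding rows whose symbol begins with NDUF, UQCR, UQCC, ATP5, COX4, COX5, COX6, COX7 or COX8, together with SDHA, SDHB, SDHC, SDHD and CYC1. This rule, which uses no measured value, took 101 of the 60504 rows. By function, 46 belong to complex I, 4 to complex II, 13 to complex III, 19 to complex IV and 19 to complex V. The table carries older symbols for ATP synthase, so that ATP5B is today's ATP5F1B, ATP5G1, ATP5G2 and ATP5G3 are ATP5MC1, ATP5MC2 and ATP5MC3, ATP5H is ATP5PD, and ATP5S and ATP5SL are the assembly factors DMAC2L and DMAC2. ATP5SL was counted with complex I and NDUFA4 with complex IV, where their proteins act.

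In the respiratory chain, complex I takes electrons from NADH and complex II from succinate, and coenzyme Q carries them to complex III. Cytochrome c carries them on to complex IV, which reduces oxygen, and the proton gradient built on the way drives ATP synthase, complex V. Complexes I, III, IV and V combine nuclear-encoded subunits with a few made inside the mitochondrion, and dedicated assembly factors put them together. The silenced gene, GCDH, encodes glutaryl-CoA dehydrogenase, which breaks down lysine and tryptophan inside mitochondria and hands its electrons to the same coenzyme Q pool through electron-transfer flavoprotein.

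RNA was sequenced from established human cancer cell lines 48 hours after transfection with small interfering RNA against GCDH (siGCDH) or control siRNA (siControl). The 24 libraries form 8 groups of 3: siGCDH and siControl of A375 melanoma cells in batch 1, of A375 in batch 2, of SK-Hep1 cells labelled as liver, and of SKBR3 cells labelled as breast. A375 batch 1 was made with a QuantSeq kit that reads the 3′ ends of mRNA, and the other 6 groups with poly(A) selection and a directional NEBNext kit that reads whole transcripts, so levels were compared only within the NEBNext kit. Replicates are triplicate wells of a line, and the p-values measure the spread between wells, which may be technical. Values are TPM, a share of all transcripts corrected for transcript length, and since they hold no read counts the sequencing depth behind them is not known.

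The targeted transcript fell to 17.8% of the siControl mean in A375 batch 2, 26.4% in SKBR3 and 29.3% in SK-Hep1, and it stood at 20.8% in A375 batch 1, where its adjusted p of 0.118 did not pass. The 7 melanoma markers summed to between 565.03 and 623.59 TPM in A375 batch 2. They summed to between 1.89 and 2.71 TPM in SK-Hep1 and between 8.88 and 22.53 TPM in SKBR3. Even so, 4 of the 7 were under 1 TPM in every A375 group. The 5 hepatocyte markers, ALB among them, summed to between 0.41 and 2.39 TPM in SK-Hep1, so the labelled tissue is not seen in them. The 9 markers of HER2-amplified breast cells summed to between 148.87 and 169.04 TPM in siGCDH and between 102.68 and 108.21 TPM in siControl libraries labelled SKBR3, below SK-Hep1 (3445.55 to 6573.23 TPM), so the data do not bear out that label and the name SKBR3 below is only the label. In A375 batch 1, 4 non-coding rows of chromosome 21 took 33.0 ± 1.65% of all TPM with siGCDH and 17.1 ± 2.07% with siControl (SD, n = 3 each), against under 0.1% in every other group. In SKBR3, 17112 to 17251 genes reached 1 TPM with siGCDH and 15140 to 15181 with siControl. Because TPM sum to one total, such shifts move the values of all other genes. Without the 4 chromosome 21 rows, a setting chosen after seeing the data, 12 members were lower in A375 batch 1 in place of the 43 given below. The share of all genes lower under that setting is not given here, so the 12 cannot be set against it. The median log2 difference over all genes, siGCDH minus siControl on the log2(TPM + 1) scale used throughout, was -0.20 for A375 batch 1 and 0.02 for batch 2, and it reached 0.18 for SK-Hep1 and 0.29 for SKBR3. Values after scaling each library to a common median are given below where they change a call.

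Summed as one pool of transcripts, the 101 genes were less abundant with siGCDH in A375 and SKBR3 and more abundant in SK-Hep1. They made up 1.93 ± 0.0465% of TPM with siGCDH and 2.09 ± 0.0205% with siControl in A375 batch 2, and 1.98 ± 0.0691% with siGCDH and 1.71 ± 0.0264% with siControl in SK-Hep1. In SKBR3 the shares were 2.07 ± 0.0293% with siGCDH and 2.31 ± 0.022% with siControl, and in A375 batch 1 they were 1.87 ± 0.0704% with siGCDH and 2.71 ± 0.077% with siControl (SD, n = 3 each). The 3 siGCDH libraries lay apart from the 3 siControl libraries in each of these 4 comparisons. In bulk RNA, fewer cells of one kind and less of a transcript per cell cannot be told apart.

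Gene by gene, 33 of the 94 members tested in A375 batch 2 fell and 5 rose (limma, adjusted p under 0.05), where 15.7% of all tested genes fell and 17.9% rose. In SK-Hep1, 55 of 93 members rose and 8 fell, against 37.3% and 18.2% of all genes. In SKBR3, 36 of 95 members fell and 14 rose, against 14.7% and 47.3% of all genes. After median scaling the SKBR3 counts became 70 lower and 4 higher (all genes 25.6% and 29.4%), whereas SK-Hep1 had 39 higher and 11 lower (28.3% and 23.1%) and A375 batch 2 had 29 lower and 5 higher (16.2% and 17.7%). In A375 batch 1, 43 of 92 members fell and 0 rose (63 and 0 at an unadjusted p under 0.05), against 6.73% and 1.18% of all genes. That count is the least stable of the 4: it was 13 after median scaling (2.28% of all genes lower and 1.59% higher), 1 without a mean-variance trend, and 28, 27, 25, 21, 15 and 14 when siGCDH replicate 2, siControl replicate 1, siGCDH replicate 1, siGCDH replicate 3, siControl replicate 2 and siControl replicate 3 were left out in turn. Of these settings, only median scaling has the share of all genes beside it. The median member stood at -0.51 for A375 batch 1 and -0.09 for batch 2, at 0.25 for SK-Hep1 and at -0.08 for SKBR3, below the median of all genes in both A375 batches and in SKBR3 and above it in SK-Hep1.

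**Figure D1:**
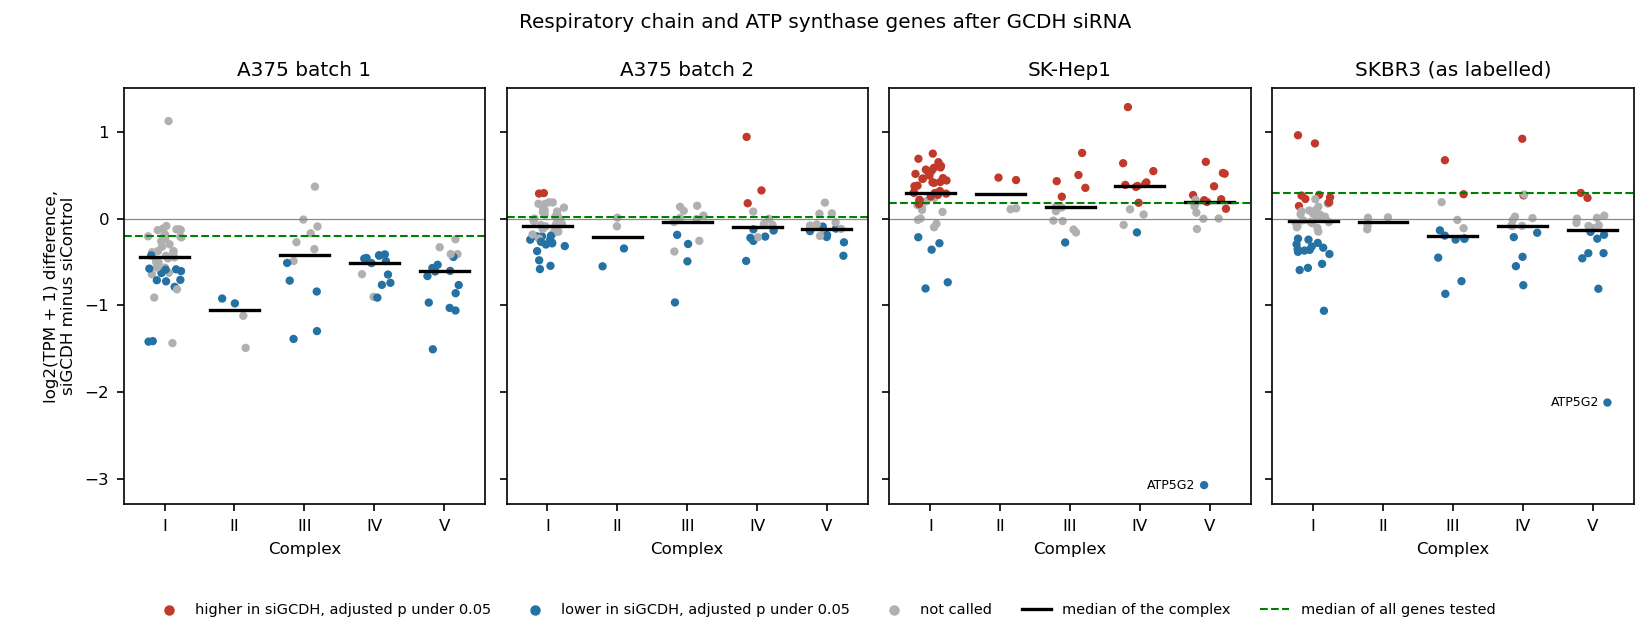
Log2 difference of each tested member, siGCDH minus siControl on the log2(TPM + 1) scale, by complex in the 4 comparisons; red and blue points passed the test, black bars are the median of a complex and the dashed green line is the median of all genes tested. Most points lie below 0 in A375 batch 1, above 0 in SK-Hep1, and below the dashed line in SKBR3, where the median of all genes is 0.29; ATP5G2 stands alone at -3.07 in SK-Hep1 and -2.12 in SKBR3.

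Set side by side, all 5 complexes had lower sums with siGCDH in A375 and higher sums in SK-Hep1, while in SKBR3 complexes I and II stood apart from III, IV and V. In A375 batch 2 the summed TPM with siGCDH was 0.927 times that with siControl for complex I, 0.842 for II, 0.910 for III, 0.933 for IV and 0.931 for V. The corresponding ratios in A375 batch 1 were 0.720, 0.496, 0.681, 0.696 and 0.677. Complex II had the lowest ratio in both batches. In SK-Hep1 the ratios were 1.25 for complex I, 1.19 for II, 1.10 for III, 1.19 for IV and 1.05 for V. By the test, 5 of 13 complex III members were higher there and 1 lower. For complex V the counts were 9 of 17 and 1, against 37.3% and 18.2% of all genes. After median scaling complex III had 3 higher and 3 lower, and complex V 5 and 2 (28.3% and 23.1%). The median log2 difference was 0.13 for complex III and 0.19 for complex V, against 0.18 for all genes. In SKBR3 the ratios were 0.997 for complex I and 0.967 for complex II, where the libraries of the 2 treatments overlapped, and 0.825 for III, 0.871 for IV and 0.826 for V, where they did not. These sums carry no test, and restricting them to structural subunits left every ratio on its side of 1 except complex I of SKBR3 (log2 ratio 0.01); the SK-Hep1 complex III libraries then overlapped.

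**Figure D2:**
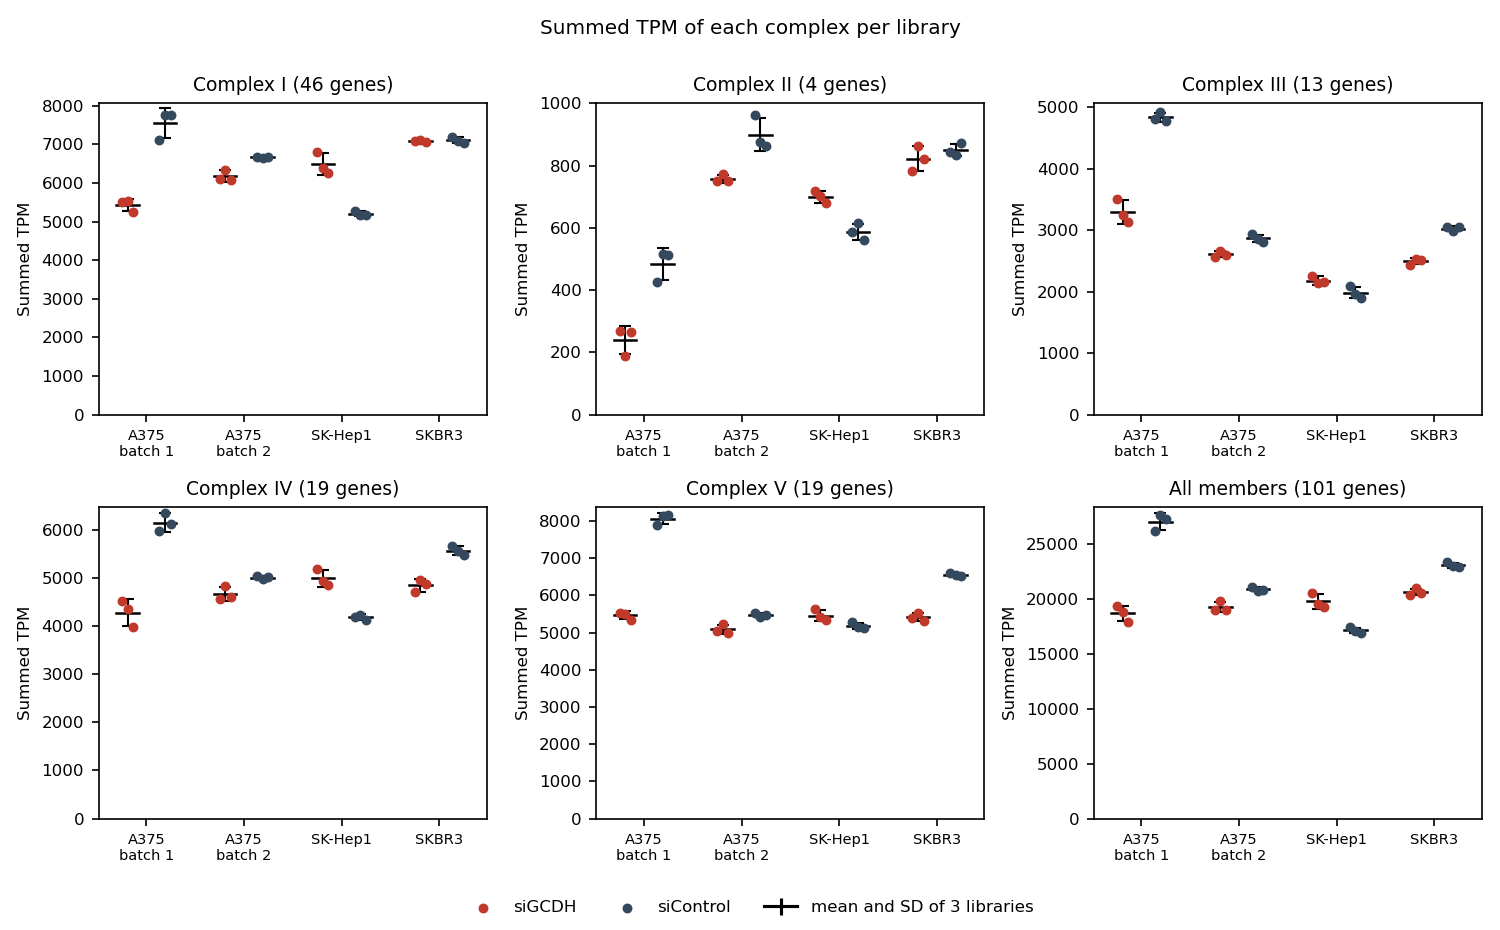
Summed TPM of the members of each complex in every library, siGCDH left of siControl within each line and batch; points are libraries and bars their mean. Within A375 and SK-Hep1 the siGCDH and siControl points are apart for all 5 complexes, and in SKBR3 they overlap for complexes I and II.

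Complex I has 46 members here: 7 subunits of the catalytic core, 30 accessory subunits, 8 assembly factors and a readthrough gene. In A375 batch 2, 14 fell and 2 rose (15.7% and 17.9% of all genes). In SK-Hep1, 30 rose and 5 fell (37.3% and 18.2% of all genes), and after median scaling 21 rose and 5 fell (28.3% and 23.1%). In SKBR3, 15 fell and 8 rose (14.7% and 47.3% of all genes), and after median scaling 32 fell and 2 rose (25.6% and 29.4% of all genes). In SK-Hep1, 6 of the 7 core subunits rose, with differences from 0.17 for NDUFV1 to 0.38 for NDUFS7, of which 3 stayed called after median scaling. Of the same 7, 4 fell in A375 batch 2, and the other three did not pass.

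NDUFS1, the core subunit that holds several iron-sulfur clusters, had 52.8, 51.9 and 57.2 TPM with siGCDH and 70.7, 73.3 and 66.9 TPM with siControl in A375 batch 2 (log2 difference -0.37, SE 0.06, adjusted p = 0.00325). In SK-Hep1 it had 69.8, 76.5 and 74.2 TPM with siGCDH and 59.4, 59.6 and 61.1 TPM with siControl (0.29, SE 0.06, adjusted p = 0.00305). SKBR3 had 68.5, 67.5 and 63.3 TPM with siGCDH and 87.95, 82.5 and 86.1 TPM with siControl (-0.36, SE 0.05, adjusted p = 0.000735). The libraries of the 2 treatments were apart in each of these 3 comparisons, lower with siGCDH in A375 batch 2 and SKBR3 and higher in SK-Hep1, and they overlapped in A375 batch 1, where NDUFS1 was not called.

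Among the accessory subunits, NDUFB6, part of the membrane arm, fell in A375 batch 2 to 65.6, 61.1 and 67.0 TPM with siGCDH, against 92.9, 99.1 and 91.6 TPM with siControl (-0.54, adjusted p = 0.000442). It fell also in A375 batch 1 (-1.41) and in SKBR3 (-0.32), and was not called in SK-Hep1 (0.25, overlapping libraries).

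NDUFA2 and NDUFB10 set SKBR3 and SK-Hep1 apart from A375 batch 2 in opposite ways. NDUFA2, an accessory subunit of the matrix arm, had 61.3, 55.1 and 58.7 TPM with siGCDH and 128, 116 and 125 TPM with siControl in SKBR3 (-1.06, SE 0.06, adjusted p = 1.13e-05). In SK-Hep1 the values were 55.0, 46.8 and 46.0 TPM with siGCDH and 90.6, 89.8 and 79.7 TPM with siControl (-0.80, adjusted p = 0.000149). NDUFA2 was not called in A375 batch 2, with overlapping libraries at 108, 115 and 110 TPM with siGCDH and 125, 113 and 118 TPM with siControl. It was lower in A375 batch 1 (-0.58, adjusted p = 0.0394), a call lost after median scaling and without any library but siGCDH replicate 1 (highest adjusted p 0.106).

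NDUFB10, a membrane-arm subunit on the intermembrane-space side, rose in SKBR3 to 664, 648 and 681 TPM with siGCDH, against 369, 359 and 365 TPM with siControl (0.87, SE 0.03, adjusted p = 2.04e-06; 0.63 after median scaling). It rose less in SK-Hep1 (176 ± 13.2 TPM with siGCDH and 131 ± 4.03 TPM with siControl, 0.42). In A375 batch 2 it had 238 ± 8.89 TPM with siGCDH and 264 ± 12.7 TPM with siControl and did not pass (adjusted p = 0.0513). NDUFA12, an accessory subunit of the peripheral arm, had the smallest adjusted p of its class in SK-Hep1, with 714 ± 30.2 TPM with siGCDH and 469 ± 33.4 TPM with siControl (0.61, adjusted p = 9.56e-05). It was not called in the other 3 comparisons, but was lower by the test in SKBR3 after median scaling (-0.22).

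Of the 8 complex I assembly factors, NDUFAF6, needed for an early step of complex I assembly, had 36.6, 39.5 and 38.9 TPM with siGCDH and 16.1, 22.5 and 19.6 TPM with siControl in SKBR3 (0.96, adjusted p = 0.000323). In SK-Hep1 it had 23.7 ± 2.50 TPM with siGCDH and 15.2 ± 5.23 TPM with siControl (0.65), a call lost when siControl replicate 2, siControl replicate 3, siGCDH replicate 1 or siGCDH replicate 3 was left out (highest adjusted p 0.0861). NDUFAF5, a methyltransferase-like assembly factor that hydroxylates NDUFS7, was higher in SK-Hep1 (0.47) and lower in SKBR3 (-0.52). The SK-Hep1 calls of both were lost after median scaling (adjusted p = 0.058 and 0.0563).

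ATP5SL, today DMAC2, which joins complex I modules of the distal membrane arm, fell in SK-Hep1 to 23.6, 24.6 and 22.8 TPM with siGCDH, against 41.6, 40.0 and 38.4 TPM with siControl (-0.73, adjusted p = 6.52e-05). It fell in SKBR3 by a like size (-0.59) and rose in A375 batch 2 to 56.1, 64.1 and 62.0 TPM with siGCDH, against 50.5, 48.5 and 48.8 TPM with siControl (0.29). NDUFAF7, a methyltransferase needed for complex I assembly, rose in all 3 full-length comparisons (0.29 in A375 batch 2, 0.58 in SK-Hep1 and 0.26 in SKBR3). Its A375 batch 2 call was lost when any library but siControl replicate 3 was left out (highest adjusted p 0.135), and its SKBR3 call without siControl replicate 1 or siGCDH replicate 1 (highest adjusted p 0.0822) and after median scaling (0.03). NDUFAF4 had the smallest adjusted p of the assembly factors in SKBR3, where it was lower (-0.57).

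**Figure D3:**
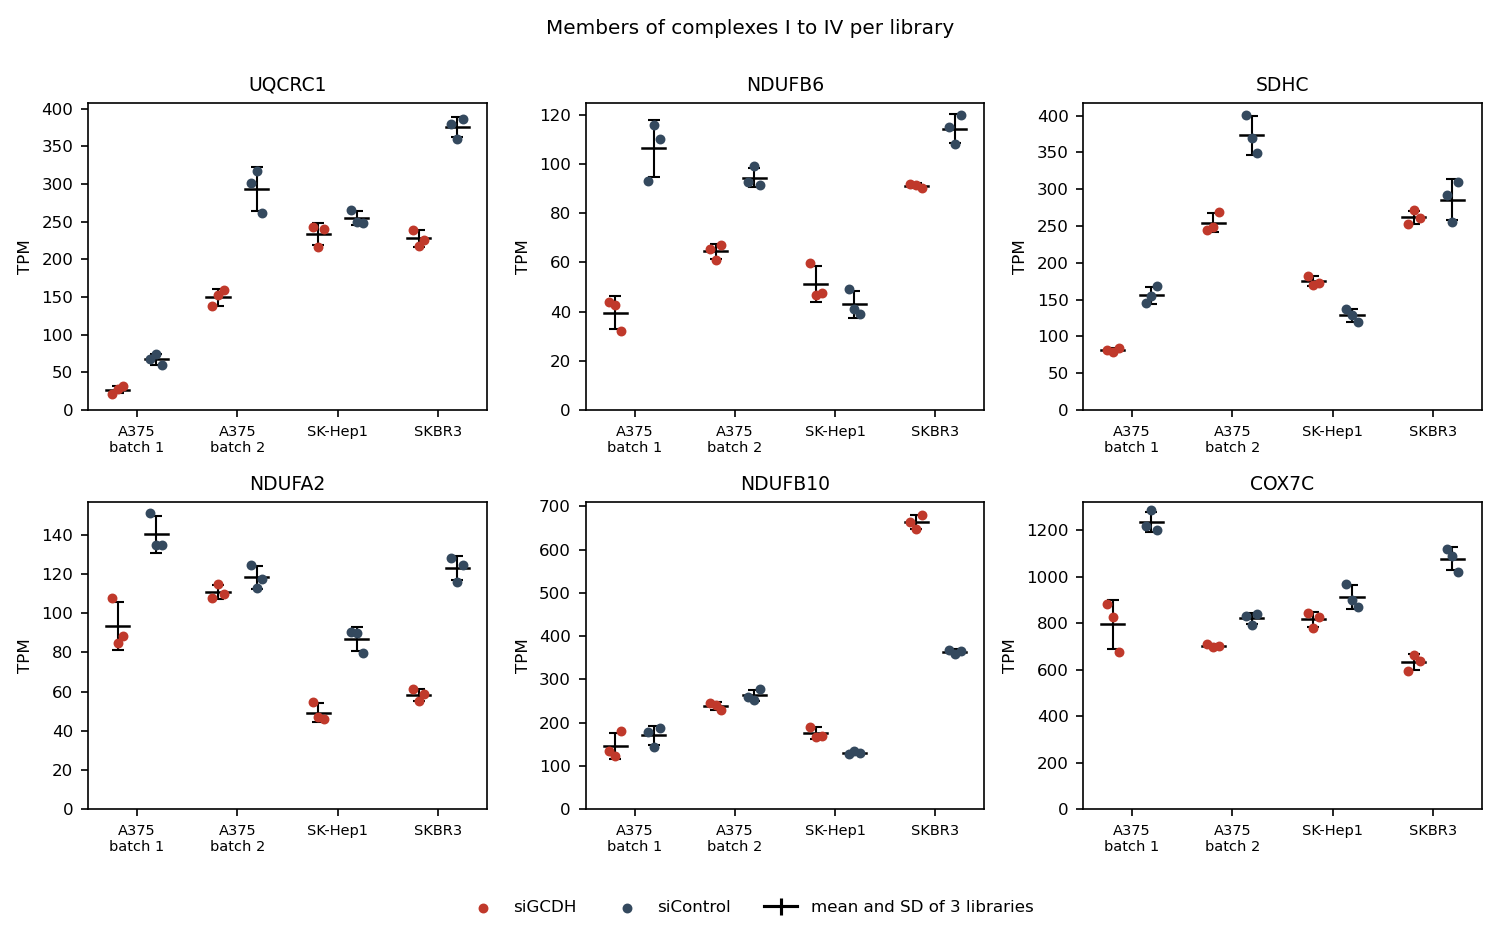
TPM of UQCRC1, NDUFB6, SDHC, NDUFA2, NDUFB10 and COX7C in each library, siGCDH left of siControl; points are libraries and bars their mean. UQCRC1 is lower with siGCDH in both A375 batches and SKBR3, NDUFA2 is lowest relative to siControl in SKBR3 and SK-Hep1, and NDUFB10 reaches 648 to 681 TPM with siGCDH in SKBR3.

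Complex II, succinate dehydrogenase, is wholly nuclear-encoded and has 4 subunits. SDHC, a membrane anchor, had 245, 249 and 270 TPM with siGCDH and 401, 370 and 349 TPM with siControl in A375 batch 2 (-0.55, SE 0.06, adjusted p = 0.000536). In SK-Hep1 it had 183, 170 and 172 TPM with siGCDH and 138, 129 and 119 TPM with siControl (0.44, adjusted p = 0.000624). The libraries were apart in both lines and in opposite directions, and the difference between the 2 effects, A375 batch 2 minus SK-Hep1, was -0.99 (SE 0.09, adjusted p = 6.33e-06).

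SDHA, the flavoprotein that oxidises succinate, was likewise lower in A375 batch 2 and higher in SK-Hep1. It had 67.1 ± 4.99 TPM with siGCDH and 85.4 ± 6.31 TPM with siControl in A375 batch 2 (-0.34, adjusted p = 0.0119), and 125 ± 1.45 TPM with siGCDH and 89.5 ± 2.34 TPM with siControl in SK-Hep1 (0.47, adjusted p = 9.5e-05). SDHB, the iron-sulfur subunit, and SDHD, the other anchor, were not called in any comparison. In the full-length libraries their differences lay between -0.09 and 0.12. In A375 batch 1 they were -1.12 for SDHB and -1.49 for SDHD with adjusted p of 0.0612 and 0.0577, beside called falls of SDHA (-0.98) and SDHC (-0.92). No complex II member was called in SKBR3, and 3 of the 4 were lower there after median scaling.

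Complex III has 9 subunits among its 13 members. UQCRC1, a core protein of the matrix side, had 137, 153 and 159 TPM with siGCDH and 301, 318 and 261 TPM with siControl in A375 batch 2 (-0.97, SE 0.08, adjusted p = 0.000171). In SKBR3 it had 239, 218 and 226 TPM with siGCDH and 380, 360 and 386 TPM with siControl (-0.72, adjusted p = 2.05e-05). SK-Hep1 was at 243, 217 and 241 TPM with siGCDH and 266, 250 and 248 TPM with siControl, apart but not called (-0.13, adjusted p = 0.0896), and A375 batch 1 was lower by the largest amount (-1.295, adjusted p = 0.00909). Of the 9 complex III subunits, 3 rose and 1 fell in SK-Hep1 (37.3% and 18.2% of all genes). After median scaling 2 rose and 3 fell there (28.3% and 23.1%), so calls of single subunits in that line depend on the scaling. UQCRC1 was therefore the most changed complex III subunit of A375 batch 2. Its partner UQCRC2 was not called in A375 or SK-Hep1 (between -0.09 and 0.13) and fell by 0.14 in SKBR3.

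UQCR11, a small subunit of complex III, had 206, 202 and 215 TPM with siGCDH and 402, 354 and 383 TPM with siControl in SKBR3 (-0.87, adjusted p = 1.58e-05), fell in SK-Hep1 (-0.28), and was not called in A375 batch 2 (-0.01, adjusted p = 0.948). CYC1, the cytochrome c1 that passes electrons to cytochrome c, fell in A375 batch 2 (180 ± 5.06 TPM with siGCDH and 205 ± 1.49 TPM with siControl, -0.19) and in SKBR3 (120 ± 4.003 TPM with siGCDH and 164 ± 5.84 TPM with siControl, -0.45). In SK-Hep1 CYC1 was at -0.16 and not called before median scaling. UQCRB, beside the quinone site, fell in both A375 batches (-0.84 and -0.29) and in SKBR3 (-0.23). The SKBR3 call of UQCRB was lost when siControl replicate 2, siControl replicate 3, siGCDH replicate 1 or siGCDH replicate 3 was left out (highest adjusted p 0.0889). UQCRH, the hinge protein and the most abundant complex III member, fell in SKBR3 (-0.23) and was not called in the other comparisons. Its retrocopy UQCRHL shares 272 of 276 coding positions with it, so reads may be split between them.

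Complex III has 3 assembly factors here, of which UQCC3 was not called in any comparison. UQCC1, which helps cytochrome b synthesis, had 105, 99.05 and 111 TPM with siGCDH and 62.6, 62.0 and 60.5 TPM with siControl in SK-Hep1 (0.76, adjusted p = 2.9e-05). In SKBR3 it had 107, 102 and 114 TPM with siGCDH and 64.5, 68.3 and 68.8 TPM with siControl (0.67, adjusted p = 5.31e-05; 0.44 after median scaling). A375 batch 2 was at 43.4 ± 4.84 TPM with siGCDH and 57.2 ± 10.6 TPM with siControl and was not called (-0.38, adjusted p = 0.0638), yet its effect differed from those of SK-Hep1 (-1.13, adjusted p = 0.000147) and SKBR3 (-1.05, adjusted p = 0.000247). UQCC2, the partner of UQCC1, fell in A375 batch 2 (-0.49) and SKBR3 (-0.24) and rose in SK-Hep1 (0.35, a call lost after median scaling).

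Complex IV, cytochrome c oxidase, had 6 of 14 tested members lower and 3 higher in A375 batch 2, where 15.7% of all genes were lower and 17.9% higher. It had 9 of 13 higher and 1 lower in SK-Hep1 (37.3% and 18.2% of all genes), and 5 of 14 lower and 2 higher in SKBR3 (14.7% and 47.3% of all genes). After median scaling 11 were lower and 1 higher in SKBR3 (25.6% and 29.4% of all genes). The scaled counts were 4 lower and 3 higher in A375 batch 2 (16.2% and 17.7%), and 8 higher and 1 lower in SK-Hep1 (28.3% and 23.1%). COX7C, a small membrane subunit and the most abundant complex IV member, fell in all 4 comparisons. It had 711, 697 and 703 TPM with siGCDH and 831, 794 and 839 TPM with siControl in A375 batch 2 (-0.22, adjusted p = 0.00149). In SKBR3 it had 596, 664 and 637 TPM with siGCDH and 1117, 1091 and 1021 TPM with siControl (-0.77, adjusted p = 2.03e-05). In SK-Hep1 it had 843, 781 and 827 TPM with siGCDH and 970, 900 and 869 TPM with siControl (-0.16, adjusted p = 0.0268). The libraries were apart in each line, but the SK-Hep1 call of COX7C was lost when siControl replicate 1, siControl replicate 2, siGCDH replicate 2 or siGCDH replicate 3 was left out (highest adjusted p 0.0962). In A375 batch 1 it was lower by 0.64, with a call lost without siControl replicate 2 or 3 (highest adjusted p 0.0575) and after median scaling.

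COX6A1, the widely expressed form of subunit VIa, went against its neighbours: it rose to 532, 549 and 532 TPM with siGCDH, against 480, 466 and 481 TPM with siControl, in A375 batch 2 (0.18, adjusted p = 0.00399). It rose also in SK-Hep1 (0.38) and in SKBR3 (0.27, but 0.04 and not called after median scaling), and was lower in A375 batch 1 (-0.45, not called after median scaling). COX5A, itself a subunit of complex IV, fell in A375 batch 2 (254 ± 7.70 TPM with siGCDH and 356 ± 4.22 TPM with siControl, -0.49, adjusted p = 8.22e-05) and in SKBR3 (-0.21), and had 327 ± 10.004 TPM with siGCDH and 316 ± 9.19 TPM with siControl in SK-Hep1, not called. COX4I1, the largest nuclear subunit, was lower in A375 batch 2 (-0.21) and higher in SK-Hep1 (0.40). The A375 call of COX4I1 was lost without any one of the siControl libraries or of siGCDH replicates 1 and 3 (highest adjusted p 0.0678).

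Of the isoforms bound to particular tissues, COX4I2, COX6A2, COX7A1 and COX8C did not reach the mean of 1 TPM needed for a test in any comparison. COX7B2, a testis form of COX7B, had 12.5 ± 0.725 TPM with siGCDH and 14.7 ± 1.06 TPM with siControl in A375 batch 2 and was listed at 0 in all 12 SK-Hep1 and SKBR3 libraries. COX6B2, a testis form of COX6B1, rose in SK-Hep1 to 5.62, 9.69 and 5.05 TPM with siGCDH, against 2.33, 2.47 and 1.57 TPM with siControl (1.28, adjusted p = 0.00263). NDUFA4 is a complex IV subunit that NDUFA4L2, a hypoxia-induced paralogue, can stand in for. NDUFA4 rose in SK-Hep1 (498 ± 8.16 TPM with siGCDH and 341 ± 17.04 TPM with siControl, 0.55) and fell in A375 batch 1 (-0.91, adjusted p = 0.00849). NDUFA4L2 stayed low but rose in A375 batch 2 (4.13 ± 1.04 TPM with siGCDH and 1.68 ± 0.581 TPM with siControl, 0.94) and in SKBR3 (2.94 ± 0.690 TPM with siGCDH and 1.10 ± 0.469 TPM with siControl, 0.92). Its A375 call was lost without siGCDH replicate 1 or 3 (highest adjusted p 0.0631). COX7A2L, a supercomplex assembly factor, rose in A375 batch 2 (0.32) and SK-Hep1 (0.39) but fell in A375 batch 1 (-0.74, a call lost after median scaling).

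Complex V showed the largest single change. Its membrane rotor is a ring of subunit c, whose identical mature protein is encoded by ATP5G1, ATP5G2 and ATP5G3. ATP5G2 had 92.2, 91.5 and 80.3 TPM with siGCDH and 747, 757 and 727 TPM with siControl in SK-Hep1 (-3.07, SE 0.06, adjusted p = 1.29e-07). In SKBR3 it had 133, 151 and 135 TPM with siGCDH and 625, 619 and 583 TPM with siControl (-2.12, SE 0.06, adjusted p = 7.24e-07). The residual level was thus 11.8% of siControl in SK-Hep1 and 22.9% in SKBR3, lower than that of GCDH itself in the same libraries. In A375 batch 2 it had 479, 485 and 485 TPM with siGCDH and 553, 538 and 512 TPM with siControl (-0.14, adjusted p = 0.0183), a small fall whose call was lost when siControl replicate 1, siControl replicate 2, siGCDH replicate 1 or siGCDH replicate 3 was left out (highest adjusted p 0.0636). In A375 batch 1 the difference was -0.58 (adjusted p = 0.0106, and 0.0629 after median scaling). The effect in A375 batch 2 differed from that in SK-Hep1 by 2.92 (adjusted p = 5.9e-10) and from that in SKBR3 by 1.97 (adjusted p = 7.02e-09).

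The other subunit c genes were not higher in either line. ATP5G3 had 275, 288 and 290 TPM with siGCDH and 498, 493 and 505 TPM with siControl in SKBR3 (-0.81, adjusted p = 3.54e-06), and 280 ± 8.93 TPM with siGCDH and 304 ± 20.2 TPM with siControl in SK-Hep1, not called before median scaling. Of the 6 genes of the membrane part, subunit c included, 3 rose and 1 fell in SK-Hep1 (37.3% and 18.2% of all genes). After median scaling 1 rose and 2 fell there (28.3% and 23.1%). ATP5G1 fell in SKBR3 (198 ± 13.6 TPM with siGCDH and 261 ± 10.2 TPM with siControl, -0.40) and was not called in SK-Hep1 (156 TPM in both groups). The 3 genes together had 524 ± 19.1 TPM with siGCDH and 1204 ± 31.5 TPM with siControl in SK-Hep1, and 622 ± 29.2 TPM with siGCDH and 1369 ± 20.9 TPM with siControl in SKBR3. Relative to ATP5B, the catalytic beta subunit, that sum was 0.469 with siGCDH and 1.301 with siControl in SK-Hep1, and 0.596 with siGCDH and 1.32 with siControl in SKBR3. The ratio in A375 batch 2 was 0.966 with siGCDH and 1.00 with siControl.

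**Figure D4:**
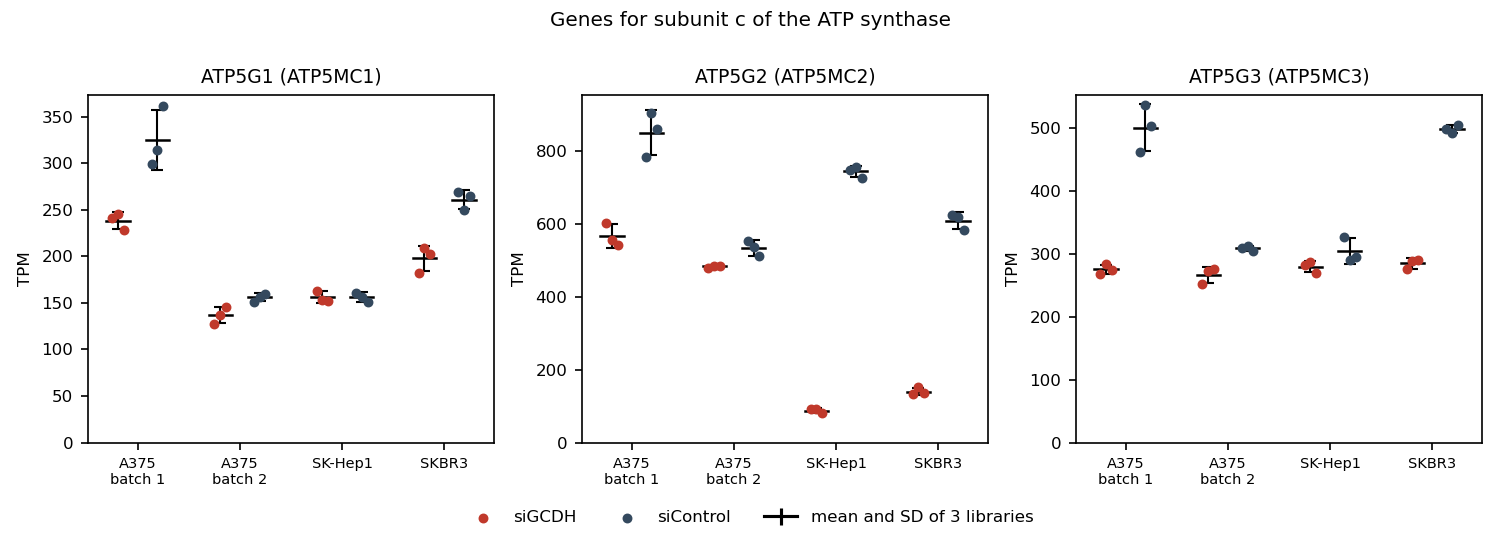
TPM of ATP5G1, ATP5G2 and ATP5G3, the genes of ATP synthase subunit c, in each library, siGCDH left of siControl; points are libraries and bars their mean. With siGCDH, ATP5G2 is the least abundant of the 3 in SK-Hep1 (80.3 to 92.2 TPM) and SKBR3 (133 to 151 TPM), and with siControl it is the most abundant there; in A375 it is the most abundant with either.

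The coding sequence of ATP5G2 holds a stretch close to one of GCDH, shown here because of the size of the fall in ATP5G2. The windows below are given as mRNA strand in DNA letters, from GENCODE 29 on hg38, with the bases that differ in capitals. The GCDH window lies in coding sequence at chr19:12891887-12891905, plus strand, and the ATP5G2 window in coding sequence on the minus strand across an exon junction, at chr12:53669871-53669879 and chr12:53669332-53669341.
GCDH: acagatgagaTcctcaTca
ATP5G2: acagatgagaGcctcaGca
They match at 17 of 19 bases. Among 19487 coding transcripts of one per gene, GCDH and ATP5G2 alone matched this window at 17 or more bases, and ATP5G1 and ATP5G3 matched it at 11 and 10. The window was taken as the part of GCDH that best matches ATP5G2, so ATP5G2 was bound to be found in that search. Other windows of GCDH were not searched over all genes, so the search cannot tell how rare such a match is. Over all 19-base windows of GCDH, the best match was 14 or 15 bases for 94 of 100 members, 16 for 4 and 17 for ATP5G2 and NDUFB3. The NDUFB3 match lies in another window of GCDH, and the values of NDUFB3 are not given here. A match of 17 bases is thus not set against a change in expression for both genes. The window was chosen after the values of ATP5G2 were seen, no source used here gives the siRNA sequences, and its part in the fall of ATP5G2 was not tested.

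Without ATP5G2, the summed TPM of complex V was 5368 ± 147 with siGCDH and 4444 ± 76.7 with siControl in SK-Hep1, a ratio of 1.21 in place of 1.05. In SKBR3 it was 5270 ± 95.4 with siGCDH and 5937 ± 28.0 with siControl, a ratio of 0.888. The 4 genes of the peripheral stalk, which holds the catalytic head still, all rose in SK-Hep1 (0.11 to 0.65), and 3 of 4 did after median scaling. In SKBR3, 3 of 4 fell, before and after median scaling. Of all genes, 37.3% rose in SK-Hep1 (28.3% after median scaling) and 14.7% fell in SKBR3 (25.6% after it). With 4 genes these counts are descriptions. ATP5H, the subunit d of that stalk, was the exception in SKBR3 and changed most in SK-Hep1. It had 632, 577 and 587 TPM with siGCDH and 419, 365 and 360 TPM with siControl in SK-Hep1 (0.65, adjusted p = 0.000117), and 225, 261 and 224 TPM with siGCDH and 307, 324 and 324 TPM with siControl in A375 batch 2 (-0.43, adjusted p = 0.00214). In SKBR3 it rose (0.30), but its difference was 0.06 and not called after median scaling.

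In the catalytic head, ATP5B had 1116 ± 11.9 TPM with siGCDH and 925 ± 24.9 TPM with siControl in SK-Hep1 (0.27), and 918 ± 37.4 TPM with siGCDH and 994 ± 11.9 TPM with siControl in A375 batch 2 (-0.12, adjusted p = 0.0353, a call lost without any library but siGCDH replicate 2, highest adjusted p 0.111). ATP5A1, the alpha subunit, fell in A375 batch 2 (-0.27) and SKBR3 (-0.40). Of the 5 genes of the head, ATP5B and ATP5A1 were thus the 2 lower in A375 batch 2 (15.7% of all genes). Only 1 head gene was lower there after median scaling (16.2% of all genes). ATP5S, an assembly factor, was lower in A375 batch 1 (-1.504), a call lost in every omission. ATP5EP2, a copy of the epsilon subunit gene ATP5E, had 171 ± 42.0 TPM with siGCDH and 344 ± 46.1 TPM with siControl in the 3′-end libraries of A375 batch 1 and at most 1.91 TPM in any library of the full-length kit, so its reads and those of ATP5E are uncertain.

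Between lines, the knockdown effects themselves were tested within the full-length kit. A375 batch 2 minus SK-Hep1 was negative for 54 of 95 members and positive for 6 (28.8% and 17.4% of all genes), with ATP5H (-1.08) and SDHC among the largest. SK-Hep1 minus SKBR3 was positive for 61 of 94 and negative for 3 (14.5% and 25% of all genes), and 68 and 3 after median scaling (20.8% and 19.4%). ATP5G2 (-0.95) and NDUFB10 (-0.44) were among the negative members, and the largest positive ones were the readthrough gene NDUFC2-KCTD14 (1.06), COX6B2 (1.01) and NDUFAF5 (0.99). A375 batch 2 minus SKBR3 split into 22 positive and 21 negative of 94 (14.5% and 36.8% of all genes), but into 43 and 6 after median scaling (22.9% and 24.1%), so its balance depends on that scaling.

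The same A375 line in 2 batches and kits gave 25 of 91 members lower in both (4.08% of all genes tested in both), out of 43 lower in batch 1 and 33 lower in batch 2. After median scaling 10 members were lower in both (1.7% of all genes). Of the members described above as lower in batch 2, ATP5G3 (-0.86), ATP5H (-0.97) and ATP5B (-0.60) were also lower in batch 1 and stayed called there after median scaling. COX5A (-0.76) did too, but lost its batch 1 call in 4 of 6 omissions of 1 library, and UQCC2 (-1.39), COX4I1 (-0.43), ATP5A1 (-0.66) and ATP5G1 (-0.44) lost their batch 1 calls after median scaling. For ATP5B the batch 2 call was the unsteady one, lost in 5 of 6 omissions of 1 library. UQCR11 was lower in batch 1 (-0.71) and stayed called after median scaling, but it was not called in batch 2. The effect was larger in batch 1 for 22 of 95 members, 0 in the other direction (4.78% and 0.447% of all genes), with ATP5D, the delta subunit of the head, at -1.12, COX7A2L at -1.06 and NDUFS7 at -0.90. At an unadjusted p under 0.05 the counts were 59 and 0. After median scaling 2 members were lower and 0 higher (0.589% and 0.582% of all genes), and the calls of ATP5D and NDUFS7 were lost. Kit, batch and the chromosome 21 rows cannot be told apart as sources of that difference.

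**Figure D5:**
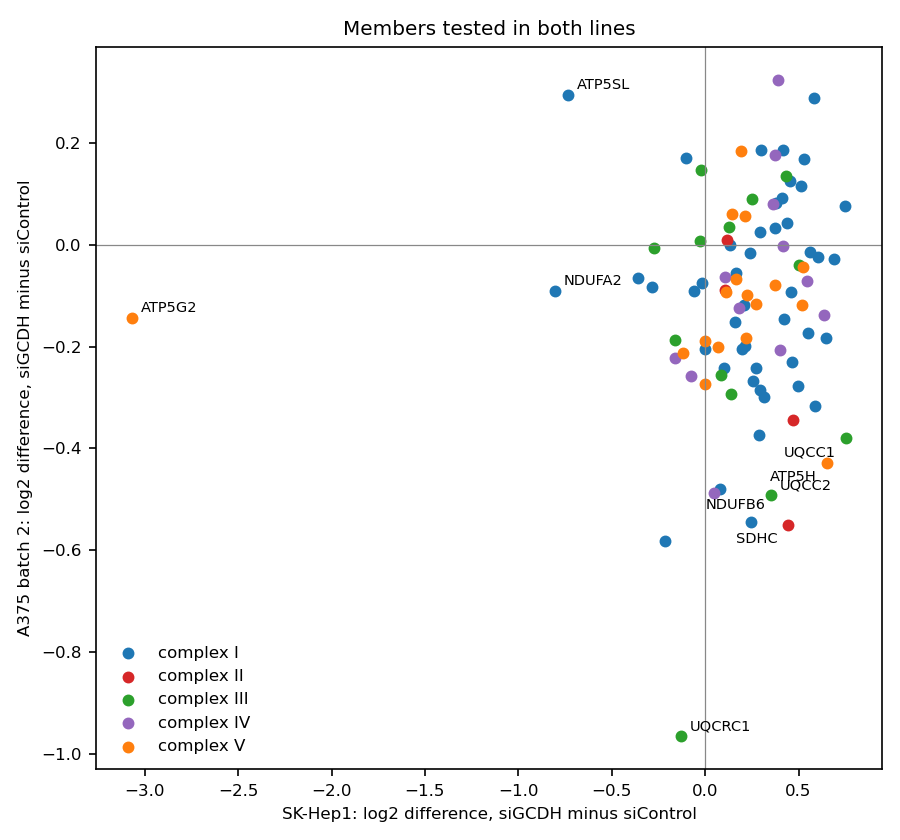
Log2 difference, siGCDH minus siControl, in A375 batch 2 (vertical) and SK-Hep1 (horizontal) for each member tested in both, coloured by complex. SDHC, UQCC1, UQCC2 and ATP5H sit at the lower right, below 0 in A375 batch 2 and above 0 in SK-Hep1, ATP5SL lies at 0.29 in A375 batch 2 and -0.73 in SK-Hep1, and ATP5G2 lies at -3.07 in SK-Hep1 and -0.14 in A375 batch 2.

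Across the comparisons 40 of the 96 members tested in any were called in both directions in different lines or batches (11.6% of the 19815 genes tested in any), and 10 were called in none (27.9% of those genes). The bases of these shares are unlike. Of the 96 members 90 were tested in all 4 comparisons, while 11919 of the 19815 genes were tested in both A375 batches. A gene tested in fewer comparisons had fewer ways to be called, so these shares are not a like background. Lower in A375 batch 2 and higher in SK-Hep1 were 17 of 92 (6.29% of all genes tested in both), among them SDHA, SDHC, UQCC2, ATP5H, COX4I1, COX7A2 and the core subunits NDUFS1, NDUFS3 and NDUFV2. After median scaling 8 members had this pattern (4.73% of all genes); among those named, NDUFS3, NDUFV2 and UQCC2 lost the SK-Hep1 call, and COX4I1 and COX7A2 the A375 call. Higher in SK-Hep1 and lower in SKBR3 were 14 of 93 (1.84% of all genes; 30 members and 3.38% after median scaling), among them the complex V subunits ATP5F1, ATP5J, ATP5O and ATP5J2 and the complex III subunit UQCR10. Of those 5, ATP5F1 and ATP5J2 lost the SK-Hep1 call after median scaling. Lower in both SK-Hep1 and SKBR3 were 7 of 93 (10.1% of all genes): ATP5G2, NDUFA2, ATP5SL, UQCR11, COX7C, NDUFV3 and NDUFA3.

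The lines also differed in these genes with siControl alone. A375 batch 2 was above SK-Hep1 in 59 of 95 members and below it in 20 (45% and 28.6% of all genes; 44 and 31 members after median scaling, against 37.3% and 34.9%). SK-Hep1 was below SKBR3 in 69 and above it in 8 (48.9% and 28.5% of all genes), and A375 batch 2 was below SKBR3 in 53 and above it in 19 (40.2% and 34.4%; 57 and 19 members after median scaling, against 42.4% and 32.6%). NDUFA12 had 491, 431 and 485 TPM in SK-Hep1, against 146, 164 and 161 TPM in SKBR3 and 135, 135 and 128 TPM in A375 batch 2, and the last 2 lines differed far less (-0.24, A375 batch 2 minus SKBR3). NDUFAB1, the mitochondrial acyl carrier protein that is also a complex I subunit, had 66.1, 55.9 and 55.6 TPM in SK-Hep1, against 227, 226 and 226 TPM in SKBR3 and 247, 242 and 241 TPM in A375 batch 2. SK-Hep1 was thus the outlying line for both genes, above the others in NDUFA12 and below them in NDUFAB1. UQCR10, a small complex III subunit, had 73.5 ± 6.60 TPM in A375 batch 2, 110 ± 2.73 TPM in SK-Hep1 and 276 ± 8.11 TPM in SKBR3, and NDUFB9 had 401 ± 13.5, 204 ± 2.54 and 168 ± 3.18 TPM in the same order.

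Genes that serve the complexes without being members are given by list. Their counts stand beside the same shares of all genes: 15.7% lower and 17.9% higher in A375 batch 2, 18.2% and 37.3% in SK-Hep1, 14.7% and 47.3% in SKBR3, and 6.73% and 1.18% in A375 batch 1. The 13 mitochondrially encoded subunits parted from the nuclear ones in SKBR3, where all 13 rose (median 1.28), while 9 of 13 fell in A375 batch 1, 5 fell and 3 rose in batch 2, and 4 fell and 3 rose in SK-Hep1. Of 28 genes for cytochrome c and complex IV assembly, 10 fell and 2 rose in A375 batch 2, 13 rose and 2 fell in SK-Hep1, 10 fell and 9 rose in SKBR3, and 7 fell in A375 batch 1. The list's median was -0.11 in A375 batch 2, 0.17 in SK-Hep1, -0.05 in SKBR3 and -0.48 in A375 batch 1, against 0.02, 0.18, 0.29 and -0.20 for all genes. Of 10 cristae genes, 6 fell in A375 batch 2, 4 rose and 2 fell in SK-Hep1, 6 fell and 3 rose in SKBR3, and 2 fell in A375 batch 1.

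Of 11 tested complex II, III and V assembly genes, 4 fell and 1 rose in A375 batch 2, while 7 rose and 2 fell in each of SK-Hep1 and SKBR3 and 1 fell in A375 batch 1. The median of the list was -0.16 in A375 batch 2, 0.35 in SK-Hep1 and 0.44 in SKBR3, against 0.02, 0.18 and 0.29 for all genes. SDHAF1, which matures the iron-sulfur subunit of complex II, fell in A375 batch 2 to 6.08 ± 0.956 TPM with siGCDH, against 22.01 ± 0.862 TPM with siControl (-1.71, adjusted p = 6.43e-05). SDHAF2, which adds the flavin to SDHA, fell instead in SK-Hep1 (9.98 ± 1.83 TPM with siGCDH and 40.3 ± 4.40 TPM with siControl, -1.92, adjusted p = 2.28e-05) and in SKBR3 (10.6 ± 0.688 TPM with siGCDH and 33.9 ± 9.27 TPM with siControl, -1.56, adjusted p = 0.000201). TIMMDC1, a membrane-arm assembly factor among the 11 other tested complex I assembly genes, fell in A375 batch 2 (124 ± 1.89 TPM with siGCDH and 254 ± 2.24 TPM with siControl, -1.03) and rose in SK-Hep1 (0.58) and SKBR3 (0.38). The list around it had 2 higher and 2 lower in A375 batch 2, 6 and 3 in SK-Hep1, 3 and 5 in SKBR3, and 0 and 2 in A375 batch 1.

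Among 11 tested regulators of respiratory genes, TFAM, the factor that packages and transcribes mitochondrial DNA, fell in A375 batch 2 (44.6 ± 2.67 TPM with siGCDH and 77.6 ± 4.39 TPM with siControl, -0.79, adjusted p = 0.00017), while 2 of the list rose and 2 fell there. The list had 2 higher and 3 lower of 10 in SK-Hep1, 2 and 3 of 11 in SKBR3, and 0 and 2 of 11 in A375 batch 1. Coenzyme Q synthesis had 3 higher and 1 lower of 11 in A375 batch 2, 3 and 2 in SK-Hep1, 4 and 3 in SKBR3, and 0 and 2 of 10 in A375 batch 1. Other electron donors to coenzyme Q, which include the flavoprotein route that GCDH uses, had 0 higher and 2 lower of 6 in A375 batch 2, 4 and 1 of 6 in SK-Hep1, 5 and 1 of 8 in SKBR3, and 0 and 1 of 5 in A375 batch 1.

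Members are short: their coding transcripts had a median length of 953 bases and a median longest 3′ UTR of 446.5 bases, against 2691 and 1061 bases over 19487 coding genes. Words of 7 bases in the 3′ UTR were ranked, over genes of at least 5 TPM, by how low the genes that hold them lay after the linear part of UTR length and GC content was removed. ACTGAGA ranked 1 of 16377 from the lowest in A375 batch 2, and TCCTCAA ranked 1 of 16376 in SK-Hep1 and 1 of 16378 in SKBR3. These 2 words were known from earlier results of these data. ACTGAGA stood in the 3′ UTR of 11.7% of the 94 members and 14.4% of all genes tested in A375 batch 2, on the mRNA strand. Members with it had a median of -0.23 and members without it -0.08, and the medians of all genes were -0.12 and 0.03. The same word ranked 2 of 16298 in A375 batch 1, and there the medians were -0.47 for members with it and -0.51 for members without it (all genes -0.25 and -0.21). TCCTCAA stood in 7.53% of 93 members and 12.1% of all genes in SK-Hep1, where the members' medians were 0.07 with it and 0.26 without it (all genes -0.03 and 0.18). In SKBR3, 7.45% of 94 members held it, against 12.05% of all genes, and the medians were -0.34 with it and -0.08 without it (all genes 0.055 and 0.24). TCCTCAA ranked only 2824 of 16298 in A375 batch 1 and 2330 of 16377 in batch 2, yet members with it lay lower there too. Their medians were -0.86 with it and -0.49 without it in batch 1 (all genes -0.16 and -0.22). In batch 2 they were -0.21 and -0.09 (all genes -0.01 and 0.01). With 7 to 12 members in a class these medians are descriptions, and the word's part in any member's change was not tested.

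The words are shown for 4 members that fell in a comparison where the word ranked 1, in capitals within their surrounding bases and on the mRNA strand, from GENCODE 29 on hg38. UQCRC1 at chr3:48605806-48605828 (coding, minus strand) and COX5A at chr15:74919957-74919979 (3′ UTR, minus strand) hold the word that also occurs in GCDH at chr19:12897359-12897381 (coding, plus strand). ATP5G3 at chr2:175177244-175177266 (minus strand) and NDUFA3 at chr19:54107148-54107170 (plus strand) hold the other in the 3′ UTR.
GCDH: acatgctcACTGAGAttaccctg
UQCRC1: gttttgagACTGAGAagaataat
COX5A: aagtggtcACTGAGAtagtcttg
ATP5G3: accaaagtTCCTCAAgtgtcgga
NDUFA3: caaagtctTCCTCAAccttaatc
UQCRC1 and COX5A both fell in A375 batch 2 and in SKBR3. ATP5G3 and NDUFA3 were lower in SKBR3. In SK-Hep1 NDUFA3 was lower too, and ATP5G3 was not called. NDUFA3 stood at -0.34 in SKBR3 and -0.28 in SK-Hep1. Other holders went otherwise: NDUFS1 and NDUFAF5 hold TCCTCAA in the 3′ UTR and rose in SK-Hep1, and UQCC1 holds ACTGAGA there and was not called in A375 batch 2. ATP5G2 holds neither word in its 3′ UTR.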

How the data were processed

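RNA-seq of siGCDH and siControl wells was read from the TPM table the authors deposited (60504 rows). The submitters' processing notes name hg38 as the build and, as tools, RSEM 1.3.1, STAR 2.7.0d and cutadapt 2.3. RSEM divides reads among similar transcripts, so copies and readthrough genes are uncertain. No source used here states the strand setting. TPM hold no depth, so no counting interval is given.

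Each line and batch (6 libraries) was fitted on log2(TPM + 1) with limma 3.58.1 (lmFit, eBayes with trend) in R 4.3.3; genes averaging 1 TPM or more entered. Two-sided p-values were adjusted by Benjamini-Hochberg over all genes, and genes under 0.05 were called. Differences of effects used 12 libraries, and siControl levels the 9 siControl libraries of the full-length kit. Tables and sequences were handled in Python 3.11.15 with pandas 2.3.3. The fits were tested on simulated data.

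Members and lists were chosen with earlier results of these data known. Named members are, per comparison and class, the smallest adjusted p and the largest change, members called alike or oppositely across lines, the largest differences between lines, complex II, CYC1, isoform groups, the most abundant member of each complex, and UQCRC1, UQCRB, COX5A and ATP5B. Members described outside this rule (NDUFV1, UQCRC2, ATP5A1, ATP5EP2, UQCRHL, NDUFV3, NDUFB3) were chosen after their values were seen. Not every member this rule names is described singly, and some results are not reported here. The 7-base words were known from those results too. Alternatives were other pseudocounts and filters, quantile normalization, median scaling, no trend, a replicate block, omission of each library, and removal of chromosome 21 rows.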

Additional observations from a re-analysis of the deposited data

Results flagged for a closer look

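The results here were picked out because the siGCDH effect of one line, or of one A375 batch, differed from that of another by the test of the difference itself. Between A375 batch 2 and SK-Hep1, the difference of effects was positive for ATP5G2 (2.92), ATP5SL (1.03) and NDUFA2 (0.71) and negative for UQCC1 (-1.13), ATP5H (-1.08) and SDHC (-0.99). Between A375 batch 2 and SKBR3 it was positive for ATP5G2 (1.97), NDUFA2 (0.97) and ATP5SL (0.89) and negative for NDUFAF6 (-1.14), UQCC1 (-1.05) and NDUFB10 (-1.01). Between SK-Hep1 and SKBR3 it was positive for NDUFC2-KCTD14 (1.06), COX6B2 (1.01) and NDUFAF5 (0.99) and negative for ATP5G2 (-0.95) and NDUFB10 (-0.44). Between A375 batch 1 and batch 2 it was negative for ATP5D (-1.12), COX7A2L (-1.06) and NDUFS7 (-0.90). All values are log2 differences, first named line or batch minus the second, and the sources of these differences were not tested.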

How the results depend on the processing

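Counts of members called in SK-Hep1, and counts lower in A375 batch 2, stayed within 1.5 times the reported ones under every alternative run. In A375 batch 1 the 43 lower members became 9 with quantile normalization, 13 with median scaling, 1 without the trend, 14 without the rows that overlap ribosomal RNA and 12 without all 4 chromosome 21 rows, the last chosen after seeing the data. They were 14 to 28 with 1 library left out, and 1 member was higher without the filter. Except for median scaling, shares of all genes under these settings are not given. Such counts therefore do not tell a change in members from a change in all genes. The 5 higher members of A375 batch 2 were 3 without the trend and 3 to 5 with 1 library left out. Median scaling gave 4 higher and 70 lower in SKBR3, 43 higher and 6 lower for A375 batch 2 minus SKBR3, and 31 lower for siControl of A375 batch 2 minus SK-Hep1. A375 batch 2 minus SK-Hep1 had 3 higher without the filter. The 22 lower of A375 batch 1 minus batch 2 became 10 without the filter, 2 with quantile normalization, 2 with median scaling, 3 without the trend and 11 to 33 with 1 library left out. Except where rows, genes or samples were removed, the cause was not tested.

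In SKBR3, median scaling turned the sign of ATP5B (-0.22), COX7A2 (-0.23), COX7A2L (-0.21), NDUFA10 (-0.087), NDUFA12 (-0.22), NDUFA7 (-0.19), NDUFB9 (-0.14), NDUFS8 (-0.18) and SDHD (-0.22), and quantile normalization that of ATP5S (-0.0091). For GCDH the exact permutation test gave p = 0.1, the smallest 3 against 3 wells allow, beside differences of -2.21 in A375 batch 2, -1.48 in SK-Hep1 and -1.78 in SKBR3. Structural subunits alone gave SKBR3 log2 ratios of summed TPM of 0.013 for complex I and -0.31 for complex III.

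Replicate numbers did not pair the wells: same-numbered wells correlated between -0.063 and 0.139, and not every well correlated best with its own number. With the replicate number as a block, 21 members were lower in A375 batch 1 and 10 in A375 batch 1 minus batch 2, and the other counts stayed within 1.5 times. Shares of all genes with the block are not given, so these counts do not tell a change in members from a change in all genes. Depth is unknown, so values near 1 TPM carry an error that cannot be given.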
